A study of Mus musculus with 12 samples.

Results

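Parvalbumin interneurons of the mouse cortex were described here at P21, 21 days after birth, from single-nucleus RNA sequencing of 12 animals. They were taken as nuclei with at least 1 Pvalb UMI (unique molecular identifier, a counted transcript) and at least 2 UMIs of Gad1 and Gad2 together. A nucleus with more than 1 Sst UMI, any Vip UMI, more than 1 Slc17a7 UMI or more than 1 Rgs9 UMI was left out, and barcodes with over 12000 UMIs or over 1% mitochondrial UMIs were not used. This gave 287 Pvalb nuclei among 71914 kept barcodes, or 0.399%. The study compared 6 WT mice with 6 mice heterozygous for Myt1l S710fsX (MYT1L Het), and each genotype had 3 males and 3 females. MYT1L is a zinc finger transcription factor of postmitotic neurons, and the C57BL/6-Myt1l em1Jdd/J line carries a germline frameshift, so every cell of a Het animal has the mutation. All animals of both genotypes had received AAV9 with a piggyBac transposase and a tdTomato transposon soon after birth. They came from several litters, each sample is a separate animal, and nuclei of all animals were prepared on the same plates.

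Parvalbumin interneurons are the fast-spiking GABAergic neurons of the cortex. Basket cells contact the soma and proximal dendrites of pyramidal neurons and chandelier cells contact the axon initial segment. They arise in the medial ganglionic eminence, fire long trains of brief spikes through Kv3 potassium channels, are wrapped in perineuronal nets as they mature, and receive neuregulin signals through the ErbB4 receptor. Pvalb encodes a calcium buffer whose expression rises with their postnatal maturation.

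The gate rested on few transcripts. Of the 287 nuclei, 247 (86.1%) held 1 Pvalb UMI, 33 (11.5%) held 2 and 7 (2.44%) held 3. A Pvalb UMI was found in 3.72% of 7710 inhibitory nuclei that passed the other criteria (95% exact binomial interval 3.31 to 4.17%, median depth 4961 UMIs). Excitatory nuclei, which should lack the gene, were those with at least 3 Slc17a7 UMIs and without a Gad1 or Gad2 UMI. A Pvalb UMI was found in 4 of these 2109 (0.19%, interval 0.0517 to 0.485%), at a higher median depth of 7657 UMIs. This gate leaves out nuclei that took up free Gad1 or Gad2 RNA. The lower share in excitatory nuclei may thus understate the background from free RNA in inhibitory nuclei. These intervals cover counting error only. The 7423 nuclei just outside the gate met every other criterion and held less than 1 Pvalb UMI, since a UMI could be divided between genes. Their median depth was 4875 UMIs, against 6753 in Pvalb nuclei, and the summed level of 13 genes that mark parvalbumin interneurons was 10829 CPM (UMIs per 1000000 UMIs summed over the nuclei), against 18731 CPM inside the gate. Erbb4 alone gave 8636 and 13862 CPM of these sums, and Vip nuclei, at 11036 CPM of Erbb4, reached 12341 CPM on the same list.

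The label was then checked against its markers. Pvalb (165 CPM) and Gad1 (440 CPM) were used by the gate and so check nothing. Erbb4, which was not used, was detected in 286 of the 287 nuclei, with at least 10 UMIs in 282 of them. Its level was 13862 CPM in Pvalb nuclei and 63.6 CPM in excitatory nuclei. Vip nuclei held Erbb4 at 11036 CPM, so Erbb4 set Pvalb nuclei apart from excitatory and Sst nuclei more than from Vip nuclei. Markers of other classes were low: 7 Vip-class markers summed to 97.5 CPM in Pvalb nuclei and 16241 CPM in Vip nuclei, and 8 Sst-class markers to 113 CPM against 1472 CPM in Sst nuclei. Adarb2 alone gave 89.9 and 15823 CPM of the Vip-class sums. Calb2, Crh and Npas1 of the first list and Chodl and Chrna2 of the second were at 0. Markers of Lamp5 interneurons summed to 52.7 CPM, of Sncg interneurons to 27.9, of excitatory neurons to 231 (1046 in excitatory nuclei), of oligodendrocytes to 42.9, of their precursors to 4.69, of microglia to 52.3 and of vessels to 9.62 CPM. Of the astrocyte markers, Aqp4, Gja1 and Gfap were at 0, and Slc4a4, a bicarbonate transporter, made up 467 of the 487 CPM. Of the striatal markers, Ppp1r1b and Adora2a were at 0, and Pde10a gave 1465 of 1523 CPM at a level close to that in excitatory nuclei (1350 CPM).

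Depth and yield differed between animals. The deposited matrices held 23429386 to 59958572 UMIs per animal, and the Pvalb nuclei of an animal summed to 71627 to 384456 UMIs. WT males gave 9, 12 and 52 Pvalb nuclei, WT females 18, 19 and 20, Het males 22, 20 and 27, and Het females 33, 21 and 34. WT male 3, with 52 nuclei, stood apart from the other animals, and WT male 1 with 9 nuclei was the least precise. No barcode was shared between animals. Among the 287 nuclei, 14 (4.88%) were in the 5% of barcodes with the highest doublet scores of their animal. Only 82 of the Pvalb nuclei met the tighter limits of the study, which were 6000 UMIs, 3000 genes and a log gene number of at least 0.9 times the log UMI number.

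Pvalb nuclei were first set against the other interneuron classes of the same animals, to show which genes they carry beyond those of the gate. Vip nuclei (615) held at least 1 Vip UMI and no Pvalb UMI, and Sst nuclei at least 2 Sst UMIs and no Pvalb UMI. Because only 31 nuclei, 1 to 5 per animal, passed the Sst gate, a wider group of 250 Sst nuclei with at least 1 Sst UMI was added after the data were seen. The 31 are part of the 250, so most of the wider group held fewer than 2 Sst UMIs. How many of its nuclei belong to other classes was not tested. Sums per animal and type entered edgeR's quasi-likelihood test with the animal as a block. Calls needed an adjusted p (Benjamini-Hochberg) below 0.05 and a log2 fold change beyond 1 in either direction. Against Vip nuclei, 201 of 2956 genes (6.8%) were higher and 268 (9.07%) lower in Pvalb nuclei. Against the 250 Sst nuclei, 115 of 2260 (5.09%) were higher and 128 (5.66%) lower, and against the 31 Sst nuclei 106 of 911 (11.6%) were higher and 53 (5.82%) lower. These comparisons share the Pvalb nuclei, so their values are given side by side. The shares over all genes are the background for the counts of each list below. Pvalb nuclei were deeper than Vip nuclei (median 4505 UMIs) and close to the 250 Sst nuclei (6620 UMIs), and the part of depth in the counts was not tested.

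Genes that mark parvalbumin interneurons were higher in Pvalb nuclei against both classes. Of 10 such genes tested against Vip nuclei, 8 were called higher and 0 lower, with a median log2 fold change of 1.88 (0.00 over all genes tested). Against the 250 Sst nuclei, 8 of 9 were called higher and 0 lower, with a median of 1.66 (-0.02 over all genes). Against the 31 Sst nuclei 8 of 9 were called higher, with a median of 2.24 (0.09 over all genes). A gene entered a test when abundant enough in either type, so members of this and later lists could enter through Pvalb nuclei alone. The lists were also chosen with earlier results of these data known. The marker counts are thus a description and no check of the label. Cntnap4, a neurexin-family adhesion protein of GABAergic terminals, was at 1060 to 1535 CPM across the 12 animals (median 1215) in Pvalb nuclei and at 169 to 406 CPM (median 284) in Vip nuclei. No animal of the Pvalb sums fell in the range of the Vip sums, and the log2 fold change was 2.02 (SE 0.10) against Vip and 1.66 (SE 0.12) against the 250 Sst nuclei. Syt2, the fast calcium sensor of release at basket cell terminals, was at 69.8 to 219 CPM in Pvalb nuclei and 0 to 62.1 CPM in Vip nuclei, a log2 fold change of 3.74 (SE 0.34). Tmem132c, a transmembrane protein, had log2 fold changes of 3.94 (SE 0.37) against Vip and 1.52 (SE 0.19) against the 250 Sst nuclei. An antisense transcript, Tmem132cos, overlaps it, and reads of the pair cannot be told apart without knowledge of the strand counted.

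Erbb4 and Btbd11 were called higher against Sst nuclei and did not pass the limit of 1 against Vip nuclei. Erbb4 had a log2 fold change of 0.21 (SE 0.06) against Vip nuclei and 2.52 (SE 0.24) against the 250 Sst nuclei, where it ran from 884 to 4096 CPM, below the lowest Pvalb sum of 10659 CPM. In the 31 Sst nuclei Erbb4 was at 607 CPM, a log2 fold change of 4.77 (SE 0.35). Btbd11, a postsynaptic protein of interneurons, rose by 2.50 (SE 0.14) on the log2 scale over the 250 Sst nuclei and differed by 0.90 (SE 0.09) from Vip nuclei.

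**Figure D1:**
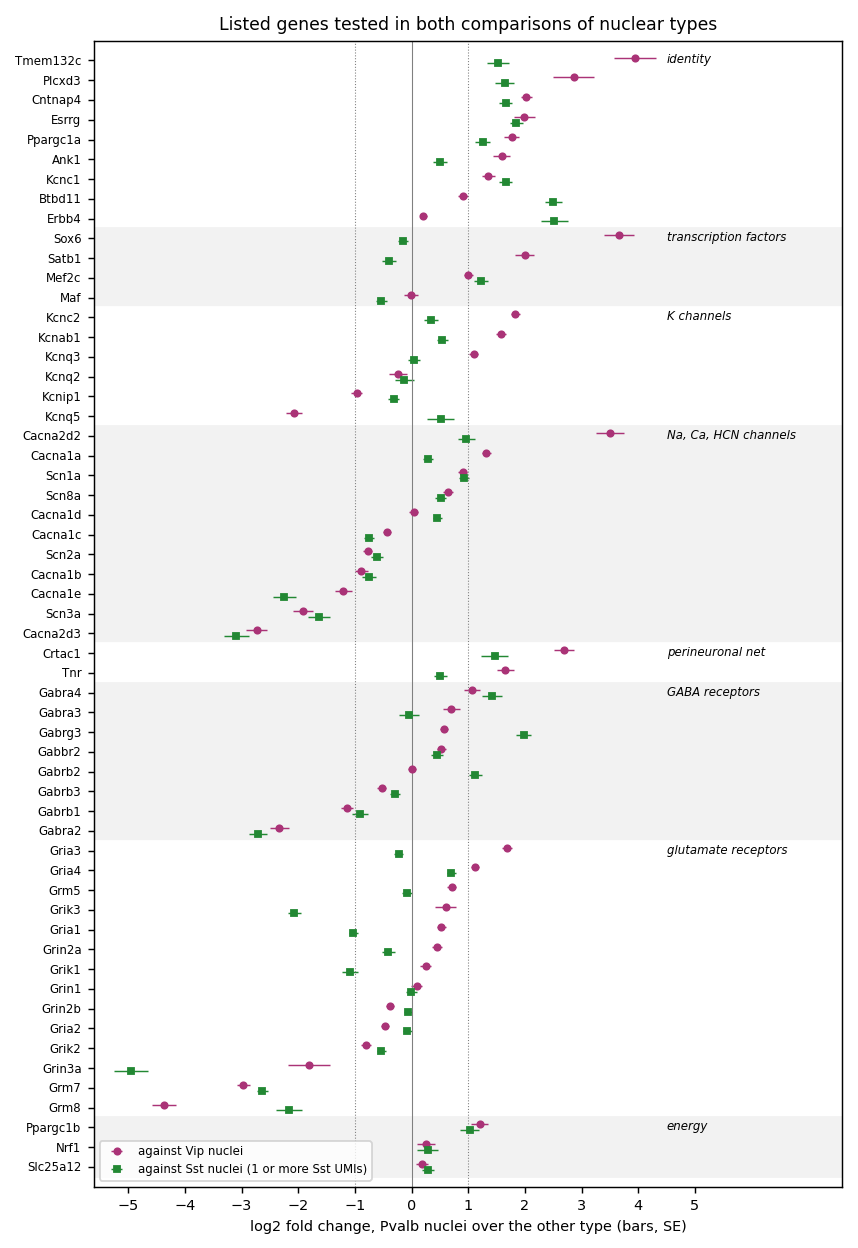
Log2 fold change (horizontal axis, bars SE) of listed genes in Pvalb nuclei over Vip nuclei (circles) and over Sst nuclei with at least 1 Sst UMI (squares), for genes tested in both comparisons, without some not reported here, grouped by function; dotted lines mark the limit of 1. Tmem132c and Cacna2d2 lie far to the right against Vip nuclei, Erbb4 and Btbd11 against Sst nuclei only, and Grm7 and Cacna2d3 lie to the left in both.

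Sox6 and Satb1 were higher against Vip nuclei, and Mef2c against both classes. Vip interneurons come from the caudal ganglionic eminence, while Pvalb and Sst interneurons share a medial origin. Sox6, which is needed for the maturation of medial-eminence interneurons, was at 1028 to 1344 CPM in Pvalb nuclei and at 20.04 to 295 CPM in Vip nuclei (log2 fold change 3.66, SE 0.26). Against the 250 Sst nuclei, which ran from 823 to 1619 CPM, the Sox6 difference was -0.15 (SE 0.09) and was not called. Satb1, a chromatin organizer that acts in the same lineage, showed the same order, with 2.00 (SE 0.16) against Vip and -0.40 (SE 0.12) against the 250 Sst nuclei. Mef2c, an activity-regulated factor, was called higher against both, by 1.23 (SE 0.12) over the 250 Sst nuclei and by 1.00 (SE 0.08) over Vip nuclei, the last at the limit itself. Maf was not called in either comparison (-0.01 and -0.53). Dlx1 fell by 2.92 (SE 0.31) against Vip nuclei. In all, 3 of 5 tested factors were called higher and 1 lower against Vip, and 1 of 5 higher and 0 lower against the 250 Sst nuclei.

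Kv3 and other potassium channel genes of fast-spiking neurons were among the genes higher in Pvalb nuclei. Of 7 tested against Vip nuclei, 4 were called higher and 1 lower, and of 8 tested against the 250 Sst nuclei, 2 were called higher and 0 lower. Kcnc1, the Kv3.1 subunit that repolarizes brief spikes, was at 245 to 524 CPM (median 385) in Pvalb nuclei, 87.8 to 219 CPM in Vip nuclei and 77.6 to 197 CPM in the 250 Sst nuclei. Its 12 Pvalb sums lay above all Vip and Sst sums, and its log2 fold changes were 1.35 (SE 0.11) and 1.66 (SE 0.12). The other Kv3 subunit measured, Kcnc2 (Kv3.2), separated Pvalb from Vip nuclei (1.83, SE 0.08) and did not pass the limit against the 250 Sst nuclei (0.34, SE 0.12). Kcnab1 (1.58, SE 0.09) and Kcnq3 (1.09, SE 0.08) also rose against Vip nuclei. Kcnq5 was 2.08 lower on the log2 scale (SE 0.14) against Vip nuclei and was not called against the 250 Sst nuclei (0.52, SE 0.24), while against the 31 Sst nuclei it was 2.17 higher (SE 0.33). Kcna1, a Kv1 channel of axons, rose by 1.27 (SE 0.22) over the 250 Sst nuclei.

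Calcium channel genes changed in opposite directions. Against Vip nuclei, 2 of 13 sodium, calcium and HCN channel genes were called higher and 4 lower, with a median log2 fold change of -0.43, and against the 250 Sst nuclei 0 of 12 higher and 3 lower, with a median of -0.16. Cacna1a, the P/Q-type channel that drives release at basket cell terminals, was at 1079 to 1509 CPM in Pvalb nuclei and 401 to 665 CPM in Vip nuclei (log2 fold change 1.32, SE 0.08). The auxiliary subunit genes split: Cacna2d2 was higher by 3.499 (SE 0.24) over Vip nuclei, while Cacna2d1 fell by 3.20 (SE 0.20) and Cacna2d3 by 2.73 (SE 0.19). Against the 250 Sst nuclei, Cacna2d3 fell by 3.09 (SE 0.22) and Cacna1e, the R-type channel, by 2.24 (SE 0.20). Scn3a, a sodium channel of early development, fell in both comparisons (by 1.92 and by 1.63). Scn1a, the sodium channel on which parvalbumin interneurons depend for firing, was at 699 to 1100 CPM and exceeded Vip and Sst nuclei in 12 of 12 animals, but at log2 fold changes of 0.90 and 0.92 it did not pass the limit of 1.

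Several glutamate receptor genes, among them the metabotropic Grm7 and Grm8, were lower in Pvalb nuclei. Against the 250 Sst nuclei, 7 of 15 were called lower and 0 higher (median log2 fold change -0.53), and against Vip nuclei 4 of 15 were lower and 2 higher (median 0.09). Grm7, a presynaptic metabotropic receptor, was at 202 to 606 CPM in Pvalb nuclei, 2259 to 3366 CPM in Vip nuclei and 1924 to 3131 CPM in the 250 Sst nuclei, and fell by 2.97 (SE 0.11) and by 2.63 (SE 0.09) on the log2 scale. No animal overlapped between the types. Grm8 fell by 4.36 and by 2.16. Grin3a, an NMDA receptor subunit that also marks Sst interneurons, fell by 4.95 (SE 0.30) against the 250 Sst nuclei and by 1.81 (SE 0.37) against Vip nuclei. The AMPA receptor genes divided: Gria4, the fast-gating subunit of these cells, rose by 1.11 (SE 0.07) and Gria3 by 1.68 (SE 0.09) over Vip nuclei, whereas Gria1 fell by 1.03 (SE 0.08) against the 250 Sst nuclei.

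Several GABA-A receptor genes were higher in Pvalb than in Sst nuclei. Of 10 tested against the 250 Sst nuclei, 5 were called higher and 1 lower, with a median log2 fold change of 0.78, and against Vip nuclei 1 of 11 was higher and 2 lower, with a median of 0.00. Over all genes, 5.09% were higher and 5.66% lower against the 250 Sst nuclei, and 6.8 and 9.07% against Vip nuclei. Gabrg3 rose by 1.97 (SE 0.14), Gabra4 by 1.42 (SE 0.17) and Gabrb2 by 1.12 (SE 0.11) over the 250 Sst nuclei. Gabra2 went the other way, at 19.8 to 208 CPM in Pvalb nuclei against 176 to 631 CPM in the 250 Sst nuclei and 159 to 376 CPM in Vip nuclei, and fell by 2.71 (SE 0.16) and by 2.33 (SE 0.16).

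The called perineuronal net and energy genes were higher in Pvalb nuclei, except for Ptprz1. Of 4 net genes tested against Vip nuclei, 3 were higher: Bcan, which encodes brevican (log2 fold change 3.00, SE 0.27), Crtac1 (2.69, SE 0.18) and Tnr, which encodes tenascin-R (1.66, SE 0.15). Ptprz1, a receptor phosphatase that binds the net, fell by 4.23 (SE 0.19). Against the 250 Sst nuclei 1 of 2 was called, Crtac1 (1.47, SE 0.23). Of 6 energy genes tested against Vip nuclei 3 were higher and 0 lower, and of 5 against the 250 Sst nuclei 3 and 0, and these were Ppargc1a (1.76 and 1.26), Ppargc1b (1.20 and 1.02) and Esrrg (1.99 and 1.85), which encode regulators of mitochondrial genes. Ppargc1a and Esrrg also stand in the list of parvalbumin markers. Of 11 genes of GABA packaging and vesicle release, Cplx1 was called higher against Vip nuclei (1.78, SE 0.17) and Unc13c lower against the 250 Sst nuclei (-4.25, SE 0.44). These are 1 of 11 in each comparison, near the shares over all genes of 6.8% and 5.66%. The counts say nothing particular to this list. Of the trophic signalling genes, Lgi1 was lower in both comparisons (-1.93 and -1.31), and Erbb4 was called higher against Sst nuclei and not against Vip nuclei.

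Genes outside these lists were among those with the largest differences. Against Vip nuclei the highest folds belonged to Mypn (log2 fold change 4.56, SE 0.30), Eya4 (4.33, SE 0.33) and Il1rapl2 (4.01, SE 0.47), and after Tmem132c, given above, Cemip, which encodes a hyaluronan-binding protein, rose by 3.92 (SE 0.27). Cemip was at 511 to 1135 CPM in Pvalb nuclei and at 9.50 to 186 CPM in Vip nuclei, and led against the 250 Sst nuclei as well (4.02, SE 0.22). Pde5a, a cyclic GMP phosphodiesterase, followed there with 3.74 (SE 0.22). Of the genes that fell against Vip nuclei, Adarb2, which marks interneurons of the caudal eminence, was at 0 to 614 CPM in Pvalb nuclei and 12109 to 19101 CPM in Vip nuclei (-7.70, SE 0.54), and the 10 lowest folds also held Igf1 (-5.66, SE 0.21) and Prox1 (-5.48, SE 0.22). Gm48261 and Gm48259, which lie within Adarb2, and Igf1 and Prox1, which overlap antisense transcripts, cannot be told apart from those partners. Man1a (-5.64, SE 0.22), Lama4 (-5.09), Grin3a and Reln (-4.53, SE 0.26) fell the most against the 250 Sst nuclei. Of the genes with large folds named here and above, Syt2, Erbb4, Cacna2d3, Grm7, Pde5a, Man1a and Reln also overlap other annotated genes, with which reads may be shared.

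Of 2241 genes tested against both classes, 60 were higher in Pvalb nuclei in each comparison, which is 29.9% of the genes higher against Vip and 52.2% of those higher against Sst nuclei. Another 77 were lower in each, or 28.7% and 60.2% of the lower genes. The lower group held Dscam, a cell adhesion molecule, with log2 fold changes of -2.80 and -2.06, and the higher group held the axon guidance ligand Slit2 (3.71 and 2.27), Myo1e (3.80 and 3.54), Trps1 (2.90 and 2.68) and the bicarbonate transporter Slc4a4 (1.34 and 2.10). The sums for Slc4a4 were not accompanied by the other astrocyte markers, which were at 15.9 CPM or less.

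Within the 287 nuclei most abundant genes were shared and a few were not. Of 292 genes with at least 500 CPM, 230 were detected in at least 90% of nuclei and 13 in under 70%. Il1rapl2, a synapse-organizing receptor, was found in 146 nuclei (50.9%) at a median of 20 UMIs where it was detected and up to 138 in a nucleus, and in 36.8 to 66.7% of nuclei across the 10 animals with at least 18 Pvalb nuclei. Zfp804b was detected in 135 nuclei (47.0%), and its share ran from 5.56 to 65.4% across the same animals. Sgcz was detected in 152 nuclei (53.0%, 38.9 to 66.7% across animals) and Kirrel3 in 179 (62.4%, 42.1 to 81.8%). In Vip and wider Sst nuclei the shares were 10.9 and 27.6% for Il1rapl2 and 46.7 and 10.8% for Zfp804b. They were 43.25 and 50.4% for Sgcz and 56.1 and 72.4% for Kirrel3. Partial detection of these genes was thus not particular to Pvalb nuclei. Kcnc1 was detected in 84.3% of nuclei and Syt2 in 49.8%, at a median of 2 and 0.5 UMIs, so a nucleus without a UMI of them cannot be read as lacking the transcript. Among 11 markers of basket cell varieties, Sema3e was found in 57 nuclei, Reln in 53, Calb1 in 28, Tac1 in 26 and Kank4 in 22. Gpr149 was found in 7, Akr1c18 in 6, Gabrg1 and Itm2a in 2 each, and Th and Tpbg in 1 each. The shares of Pvalb, Vip and wider Sst nuclei were 19.9, 33.3 and 19.2% for Sema3e and 18.5, 23.7 and 69.2% for Reln. They were 9.76, 2.76 and 36% for Calb1, 9.06, 0.325 and 0.8% for Tac1, and 7.67, 1.14 and 0.4% for Kank4. Among chandelier cell markers Unc5b was found in 11 nuclei, Cpne5 in 6, Pthlh in 4, Vipr2 in 2 and Nkx2-1 in 0, which allows a share of up to 1.05% of nuclei with a UMI. In Pvalb, Vip and wider Sst nuclei the shares were 3.83, 4.065 and 0.4% for Unc5b and 2.09, 3.415 and 21.2% for Cpne5. They were 1.39, 2.76 and 0.4% for Pthlh and 0.697, 1.95 and 1.2% for Vipr2. Each of these genes was thus found in a larger share of Vip than of Pvalb nuclei. Of the listed variety markers tested, Reln (-2.004) and Sema3e (-1.15) were lower than in Vip nuclei. Adarb2 reached at least 10 UMIs in 4 nuclei, 2 of WT male 1, 1 of WT female 3 and 1 of Het female 1. The sum of Vip-class markers was highest in WT male 1 (628 CPM, against a WT median of 40.7 CPM). That sum is mostly Adarb2, so it is not a separate observation. Nuclei with at least 2 Pvalb UMIs were compared with those holding 1, after the data were seen, because the planned group of at least 4 was empty. By edgeR's quasi-likelihood test 0 of 838 genes were called, and 30 had an unadjusted p under 0.05.

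The share of parvalbumin nuclei was next compared between genotypes. Pvalb nuclei made up 0.373% ± 0.164 of kept nuclei in WT (SD, n = 6; lowest 0.205, median 0.353, highest 0.656) and 0.402% ± 0.0732 in Het animals (SD, n = 6; 0.285, 0.409 and 0.480). All Het values lay inside the WT range. The difference of 0.0287 percentage points did not pass an exact permutation test over all relabellings (two-sided, p = 0.712, adjusted over 3 tests 0.983; the smallest p possible was 0.00216). It was 0.0140 points in males and 0.0435 in females, whereas the other measures went opposite ways by sex. Inhibitory nuclei held at least 2 UMIs of Gad1 and Gad2 together and at most 1 UMI each of Slc17a7 and Rgs9. Of 8362 such nuclei, 287 were Pvalb, 615 Vip and 250 Sst nuclei, and the rest were not assigned a class. The study reported a higher proportion of striatal inhibitory neurons in Het cortex, and whether this denominator differs by genotype was not tested. Among inhibitory nuclei the share of Pvalb nuclei was 3.38% ± 1.75 in WT and 3.402% ± 0.530 in Het animals (SD, n = 6 each), a difference of 0.0176 points (exact permutation test, p = 0.983; -0.135 in males and 0.170 in females). The Pvalb transcript level over all inhibitory nuclei was 7.68 ± 3.497 CPM in WT and 7.54 ± 1.09 CPM in Het animals (SD, n = 6 each), so that the mean was slightly lower in Het animals. The test was made on the log2 values of the animals, whose mean was 0.11 higher in Het animals (exact permutation test, p = 0.753; 0.30 in males and -0.07 in females), although 1 of 6 Het animals was above the WT median. The level counts the same Pvalb UMIs that the gate uses, so it is not independent of the share. The WT highest value of all measures came from WT male 3 and the lowest from WT male 2. Without WT male 3 the WT means were 0.317%, 2.78% and 6.71 CPM, and without WT male 2 all differences turned negative (-0.00502 and -0.3825 points and -0.14 log2). Fewer Pvalb nuclei and less Pvalb RNA per nucleus cannot be told apart by this gate. With nuclei thinned to 1500 UMIs the shares differed by -0.008216 and -0.279 points, and with at least 2 Pvalb UMIs by -0.01925 and -0.2121 points, so the direction turned in both settings. Thinned to 4000 UMIs, a depth added once the data had been examined, which left out 11923 WT and 15079 Het nuclei and left 124 Pvalb nuclei, the shares differed by 0.05915 and 0.451 points (exact permutation test, p = 0.221 and p = 0.379).

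**Figure D2:**
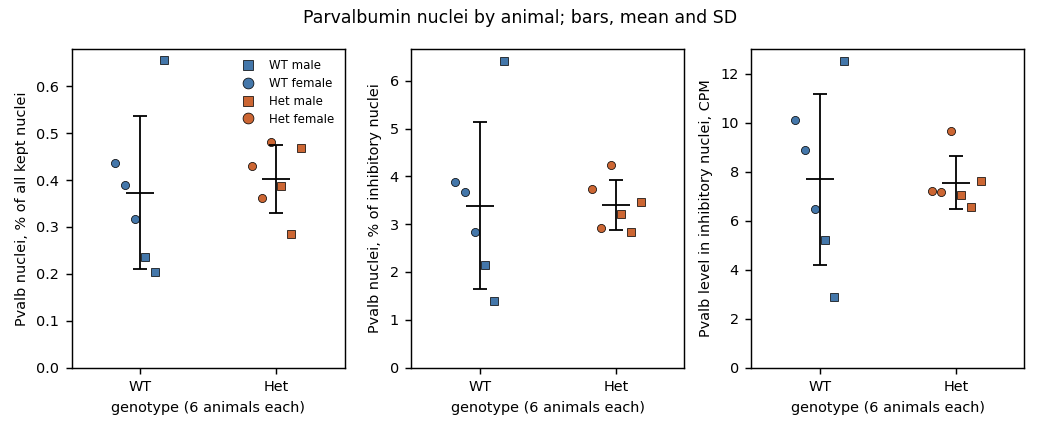
Pvalb nuclei as a percent of kept nuclei (left) and of inhibitory nuclei (middle), and the Pvalb level in inhibitory nuclei in CPM (right), for 6 WT and 6 Het animals; squares are males, circles females, and bars the mean and SD. WT male 3 is the highest point of each panel, and the Het animals sit inside the WT range.

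Expression was then compared between genotypes on the sums of Pvalb nuclei per animal, the question being whether MYT1L deficiency alters these interneurons at P21. Myt1l itself (chromosome 12 of mm10, 29528384 to 29923213) was at 447, 504 and 718 CPM in WT (lowest, median and highest) and at 452, 567 and 825 CPM in Het animals. These ranges overlapped, and its log2 fold change of 0.14 (SE 0.15) was not called. The counts do not separate the 2 alleles, so the level does not check the genotype. By edgeR's quasi-likelihood test 0 of 2303 genes (0%) passed the limits of 0.05 on the adjusted p and of 0.2 on the size of the log2 change. At an unadjusted p under 0.05 there were 122 (5.3%), of which 68 were higher in Het animals, and DESeq2 called 1.

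The 4 genes with the smallest p had lower values in Het animals, and none was called by edgeR. Cdh9, a cadherin of synaptic specificity (chromosome 15 of mm10, 16728756 to 16857094), was at 98.1, 174 and 248 CPM in WT and 63.3, 73.7 and 133 CPM in Het animals. All 6 Het animals were below the WT median, and the log2 fold change was -1.06 (SE 0.22, edgeR adjusted p = 0.0608). In the wider Sst group Cdh9 ran from 294.2 to 650.5 CPM in WT and from 202.6 to 461.3 CPM in Het animals. In Vip nuclei it ran from 68 to 193.4 CPM in WT and from 25.09 to 128 CPM in Het animals. Ralyl, an RNA-binding protein gene (chromosome 3, 13471655 to 14182287), was at 424, 488 and 679 CPM in WT and 183, 260 and 410 CPM in Het animals. Its ranges did not overlap, and the log2 fold change was -0.85 (SE 0.17), with an adjusted p of 0.0608 by edgeR and 0.0494 by DESeq2. Hook1, a microtubule-linked transport adaptor (chromosome 4, 95967240 to 96025413), ran from 109 to 128 CPM in WT and from 45.2 to 75.5 CPM in Het animals, again without overlap (log2 fold change -0.83, SE 0.20, edgeR adjusted p = 0.155). Dscam (chromosome 16, 96590840 to 97170752) was at 237, 298 and 558 CPM in WT and 140, 193 and 245 CPM in Het animals (-0.80, SE 0.19, edgeR adjusted p = 0.126). The next gene lower in Het animals, Zfp385b, gave -0.40 (SE 0.12, adjusted p = 0.63). In the wider Sst group Ralyl ran from 1337 to 2996 CPM in WT and from 725.8 to 1826 CPM in Het animals. Hook1 ran there from 63.85 to 135.1 and from 83.08 to 145.2 CPM. In Vip nuclei Ralyl ran from 124.1 to 556.6 and from 258.3 to 361.1 CPM, and Hook1 from 80.92 to 137.7 and from 103.1 to 116.1 CPM. Cdh9, Ralyl and Hook1 were not called in the comparisons of genotype effects between classes given below.

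Of the genes higher in Het animals none came as close to the threshold. Zfp536, a zinc finger repressor of neuronal differentiation, was at 451, 634 and 704 CPM in WT and 769, 822 and 1014 CPM in Het animals (log2 fold change 0.44, SE 0.12, edgeR adjusted p = 0.325). Runx2, a transcription factor and a member of the 60 genes higher against both classes, ran from 394 to 588 CPM in WT and 604 to 843 CPM in Het animals (0.46, SE 0.13, adjusted p = 0.44). Adamts17, a secreted protease gene (chromosome 7, 66839735 to 67153171), ran from 121 to 156 CPM and from 163 to 297 CPM (0.62, SE 0.18, adjusted p = 0.44). These genes did not overlap between genotypes, as was true of 10 of the 2303 genes tested (0.434%). Col25a1 (0.84, SE 0.26) and B230303A05Rik (1.05, SE 0.33), a processed pseudogene whose reads may belong to a related copy, both had an adjusted p of 0.63. Pcdh15, a protocadherin, differed by 0.52 (SE 0.17, adjusted p = 0.674) and was called after removal of nuclei with high doublet scores (0.64, edgeR adjusted p = 0.0385). Summed excitatory markers, whose groups overlapped, were at 119, 189 and 349 CPM in WT and 194, 266 and 333 CPM in Het animals. Of these 7 markers 1 was abundant enough to test. It was higher in Het animals by 0.54 on the log2 scale, with an unadjusted p under 0.05 by edgeR, and was not called. The part of excitatory RNA in these values was not tested. Vip-class markers, highest in WT male 1, overlapped as well, at 7.54 to 628 CPM in WT (median 40.7) and 10.2 to 235 CPM in Het animals (median 42.8).

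**Figure D3:**
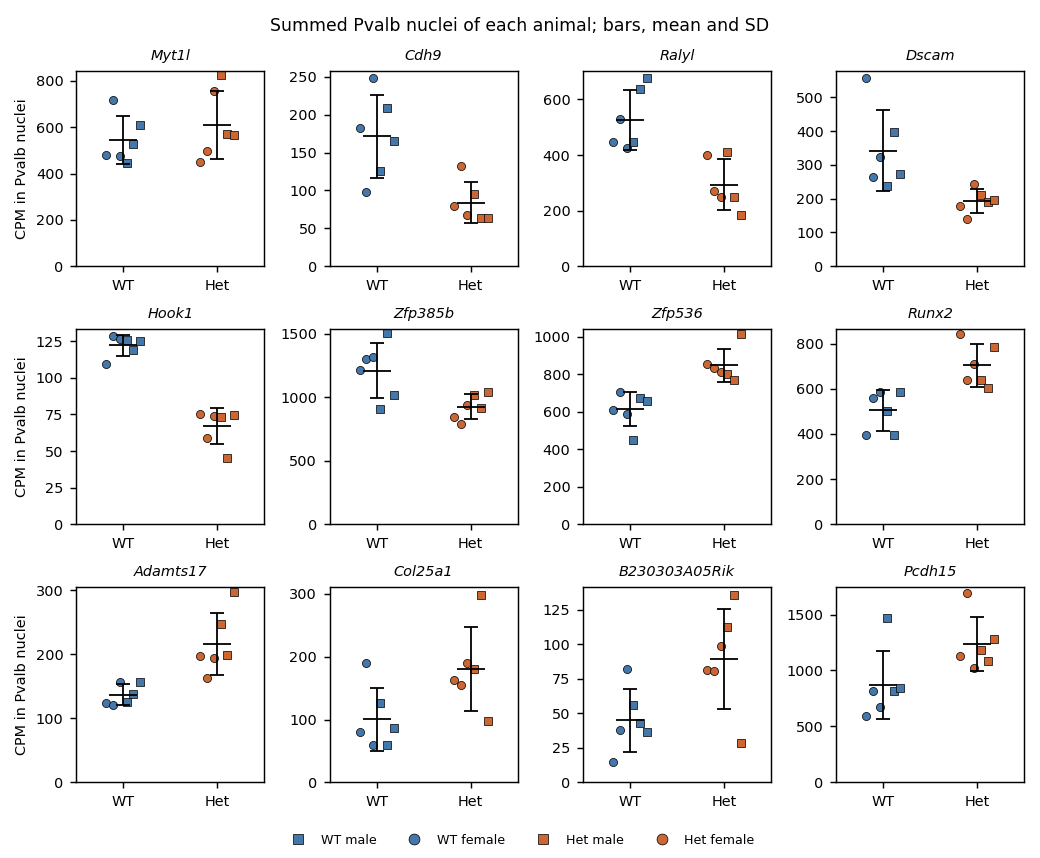
CPM in the summed Pvalb nuclei of each animal (vertical axes from 0) for Myt1l and the genes with the smallest p in each direction, with Pcdh15, in 6 WT and 6 Het animals; squares are males, circles females, bars the mean and SD. Ralyl and Hook1 are lower and Zfp536, Runx2 and Adamts17 higher in every Het animal than in any WT animal, while Myt1l overlaps.

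Whether a gene was called depended on single animals. Cdh9 was called without WT male 1, WT female 2 or Het female 2, with adjusted p from 0.0204 to 0.264 over the 12 fits that left out an animal. Ralyl was called without Het male 1 or Het female 1 (adjusted p 0.0118 to 0.269), and Pcdh15 without WT male 1 (0.0232 to 1.00). The log2 fold changes kept their sign in these fits, from -1.20 to -0.94 for Cdh9, from -0.98 to -0.75 for Ralyl and from -0.90 to -0.61 for Dscam.

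Genes that define and run parvalbumin interneurons gave 0 calls between genotypes, as did all 2303 genes tested (0%), so the count says nothing particular to these lists. The 10 tested markers had a median log2 fold change of 0.05 (-0.00 over all genes tested), 10 potassium channel genes 0.12, 11 sodium, calcium and HCN channel genes 0.01, 11 GABA release genes 0.02, 14 glutamate receptor genes -0.04, 9 GABA receptor genes 0.03, 7 trophic signalling genes 0.11 and 5 energy genes -0.10. Erbb4 was at 10659, 13826 and 15546 CPM in WT and 11363, 13979 and 15192 CPM in Het animals (0.02 on the log2 scale, SE 0.09). The same held within 0.2 for Sox6 (0.17, SE 0.10), Cacna1a (0.05, SE 0.10), Gabrg3 (0.10, SE 0.10), Nrg3 (0.01, SE 0.08) and Cntnap4 (0.08, SE 0.11). Kcnc1 was at 245, 320 and 447 CPM in WT and 363, 417 and 524 CPM in Het animals (0.33, SE 0.14, unadjusted p = 0.0267 by edgeR, adjusted p = 0.855). Grin2a, an NMDA receptor subunit that rises with maturation, was at 833, 1095 and 1370 CPM in WT and 1127, 1457 and 1627 CPM in Het animals (0.37, SE 0.12, unadjusted p = 0.00543, adjusted p = 0.674). Rims1, an active zone protein gene, was at 1521, 1784 and 2123 CPM in WT and 1273, 1471 and 1584 CPM in Het animals (-0.34, SE 0.11, unadjusted p = 0.00256, adjusted p = 0.63). Satb1 (-0.38, SE 0.17) and Cacna1b (-0.38, SE 0.17), which encodes the N-type calcium channel, also had an unadjusted p under 0.05. Other lists had few members to test: 4 transcription factors (median 0.07), 3 perineuronal net genes (0.04), and Dcx alone of 12 genes of immature neurons (0.02, SE 0.23). No basket or chandelier variety marker was abundant enough.

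Of 24 genes that the study names for P21, in either direction, 15 were tested, and 3 of these (20%) had a positive log2 fold change, against 49.9% of all genes tested. The median was -0.13, and 0 were called. Since the list pools genes that the study names in both directions, this share and median do not bear on either. Cdh9 and Rims1, given above, were the members with an unadjusted p under 0.05, followed by Epha7 (-0.44, SE 0.23), an axon guidance receptor. The study names Cdh9, Epha7 and Rim1, taken here as Rims1, among the genes higher in WT at P21. It found its P21 genes mainly in excitatory neurons. The values of Cdh9, Rims1 and Epha7 here were also lower in Het animals, but these members were picked for their p. All 4 tested members of a list called in layer 6 corticothalamic nuclei of these animals were negative (median -0.14): Kcnip4 (-0.44, SE 0.32), Oxr1 (-0.20, SE 0.10), Olfm3 (-0.08) and Gabrb2 (-0.03). These lists were chosen on the same animals and are not independent evidence of a direction.

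**Figure D4:**
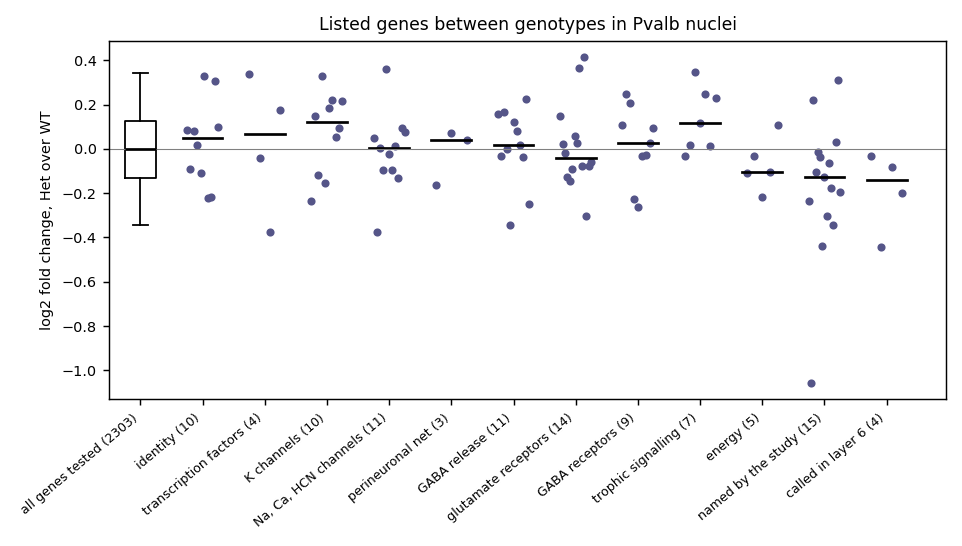
Log2 fold change of Het over WT in Pvalb nuclei (vertical axis) for each tested gene of a list (points, line at the median), with the number of genes in brackets; the box at the left shows the median, quartiles and 5th to 95th percentile of all 2303 genes. Most points lie within the whiskers of all genes, and the lowest point is Cdh9.

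The effect of genotype was finally compared between sexes and between interneuron classes. By edgeR's quasi-likelihood test of the interaction of sex and genotype, 1 of 2769 genes (0.0361%) was called: Alcam, an adhesion molecule of axon growth (chromosome 16 of mm10, 52248996 to 52454074). In males it was at 412, 511 and 619 CPM in WT and 154, 258 and 271 CPM in Het animals, and in females at 249, 259 and 284 CPM in WT and 324, 431 and 648 CPM in Het animals. The genotypes did not overlap in either sex and differed in opposite directions. The difference of the log2 fold changes, males over females, was -1.90 (SE 0.33, adjusted p = 0.00901 by edgeR and 0.00955 by DESeq2), and it was called in every fit that left out an animal (-2.11 to -1.62). In nuclei with at least 2 Pvalb UMIs it was not called (-3.83, edgeR adjusted p = 0.520). Pooled over the sexes the log2 fold change of Alcam was -0.17 (SE 0.33). Each group held 3 animals, and WT males contributed 9, 12 and 52 nuclei. Alcam was named for the smallest p of 2769 genes, so its lack of overlap is not a separate observation. In Vip nuclei it ran in males from 586.8 to 692.8 CPM in WT and 418.1 to 612.2 CPM in Het animals. In females it ran there from 464.6 to 631 and 474.3 to 843 CPM. In the wider Sst group the genotypes overlapped in both sexes. The interaction of sex and genotype was not tested in Vip or Sst nuclei.

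The effect of genotype in Pvalb nuclei was tested against that in Sst nuclei and, as a comparison added after the data were seen, against that in Vip nuclei. Against the 31 Sst nuclei 0 of 1264 genes were called (0%), with 52 at an unadjusted p under 0.05 by edgeR, and against the 250 Sst nuclei 0 of 2815, with 140. DESeq2 was not run on these. Against Vip nuclei 1 of 3656 genes (0.0274%) was called, Dscam, with a difference of the log2 fold changes of -0.89 (SE 0.17, edgeR adjusted p = 0.0374). In Vip nuclei Dscam was at 1291, 1545 and 1964 CPM in WT and 1563, 1746 and 1916 CPM in Het animals, so that the Het median was above the WT median there, and below it in Pvalb nuclei. The difference from the 250 Sst nuclei was of like size (-0.87, SE 0.20) but not called (adjusted p = 0.318). The Dscam call against Vip nuclei was lost without WT female 1, 2 or 3, Het male 1, 2 or 3, or Het female 1 or 2, with the difference between -0.99 and -0.78 and adjusted p between 0.02 and 0.19 over the 12 fits.

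**Figure D5:**
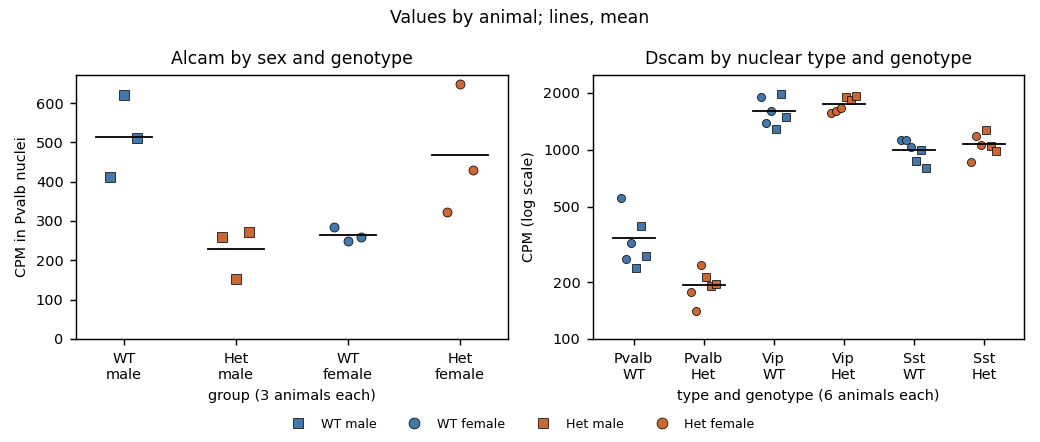
Left, CPM of Alcam in the Pvalb nuclei of each animal by sex and genotype (axis from 0); right, CPM of Dscam by nuclear type and genotype on a log axis, with Sst nuclei of at least 1 Sst UMI; points are animals, squares male and circles female, lines the mean. Alcam is lower in Het males and higher in Het females than in WT animals of their sex, and the genotypes overlap for Dscam in all 3 types, with the Het mean below the WT mean in Pvalb nuclei.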

How the data were processed

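Single-nucleus RNA was sequenced from the cortex of 12 mice, 6 WT and 6 Het, and groups were taken from the sample titles. ScaleRna, run by the authors, aligned the reads to mm10 and counted UMIs per gene, and CellFinder called nuclei. The matrices hold expected counts as the authors deposited them, not normalized, in which a UMI that fits several genes is divided (92.6% of entries were whole numbers). Seurat 4.3.0 and DESeq2 1.38.3 are named in the submitters' processing notes. The study used DoubletFinder and limits on UMIs and genes in its quality control. Whether doublets had been removed before the matrices were deposited is not given in the sources used here, and doublet scores were computed with scanpy 1.11.5. The strand used in counting was not given in the sources used here.

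Nuclei were selected from the UMIs as deposited, and counts were summed per animal and nuclear type, then rounded to whole numbers. The transcript of the injected tdTomato transposon did not enter library sizes or tests, and the 7 genes of the gates were given without a test. Sums were tested with edgeR 4.0.16 and limma 3.58.1 in R 4.3.3, by robust quasi-likelihood fits after filterByExpr and TMM scaling, with genotype as the only term as in the study, and DESeq2 1.42.0 was an alternative. Shares and the Pvalb level were tested by exact permutation of the animals. All tests were two-sided, with Benjamini-Hochberg adjustment over all genes tested. Other analyses used python 3.11.15, numpy 2.4.6, scipy 1.17.1 and pandas 2.3.3. The tests were checked on simulated counts. Gene positions came from the mm10 GENCODE annotation, to which 54587 of 55336 identifiers were matched.

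The nuclei and gene lists were chosen with earlier results of these data known. Named genes were Myt1l, the 5 genes with the smallest p in each direction between genotypes, the genes with the largest folds between types among those with at least 20 CPM, and the called and most abundant members of each list. Pcdh15 was added to these after its values were seen, as were the comparisons with Sst nuclei of at least 1 UMI, with Vip nuclei for the effect of genotype, and of 2 or more with 1 Pvalb UMI. Replicate numbers were not used to pair animals in the main tests. Deviations of animals with the same sex and number correlated between -0.01477 and 0.04678. In sums of so few nuclei these values cannot show whether the numbers pair animals. The values of some named genes are not reported here.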

Additional observations from a re-analysis of the deposited data

Results flagged for a closer look

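Between animals of a group, 30 sets of 6 values were searched for an animal far from the rest, and chance flags about 1 in 20 such sets. Pvalb in Het inhibitory nuclei was flagged for Het female 3, at 9.646 CPM with the next animal at 7.619 CPM. Zfp536 in Het Pvalb nuclei was flagged for Het male 3, at 1014 CPM with the next animal at 854.0 CPM.

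In Pvalb nuclei the effect of genotype on Alcam differed between the sexes by -1.90 on the log2 scale (males over females, edgeR adjusted p = 0.00901). The genotypes were apart there in all 3 animals of each group, but Alcam was named for the smallest p of 2769 genes. In Vip and Sst nuclei the genotypes overlapped in both sexes. Alcam was not selected on those nuclei, and the interaction of sex and genotype was not tested in them. The difference between the sexes was not called in nuclei with at least 2 Pvalb UMIs (-3.83, edgeR adjusted p = 0.520). The effect of genotype on Dscam differed between Pvalb and Vip nuclei by -0.8944 (edgeR adjusted p = 0.0374), a call that 8 of the 12 fits without an animal did not keep.

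TDTOMATO, the transcript of the injected transposon, was outside the comparisons. At least 1 UMI of it was found in 148 of the 287 Pvalb nuclei (51.57%), and in 22.2 to 83.3% of the nuclei of an animal. The share was 55.6% ± 22.4 in WT and 50.1% ± 11.6 in Het animals (SD, n = 6 each; exact permutation test, two-sided, p = 0.602). No animal without the virus was among the samples, so no level in control animals can be given.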

How the results depend on the processing

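Sums of few nuclei limit all comparisons, since 9 to 52 nuclei stood behind an animal and most held 1 Pvalb UMI. The difference in the share of all nuclei changed sign when nuclei were thinned to 1500 UMIs (-0.008216 points, 18 Pvalb nuclei left), with at least 2 Pvalb UMIs (-0.01925) and without WT male 2, and ranged from -0.005016 to 0.08529 over the fits without an animal. The difference in the share of inhibitory nuclei changed sign in the same settings (-0.279 and -0.2121), and without WT male 1 (-0.2317), WT male 2 (-0.3825), WT female 3 (-0.0927), Het female 1 (-0.04704) or Het female 3 (-0.1511), with 0.6215 as the highest. The Pvalb level ranged from -0.1386 (without WT male 2) to 0.2848 log2 over the fits without an animal. Within the limits of the study the differences were 0.05328 and 0.3145 points and 0.6664 log2, and the level differed by 0.315 log2 when thinned to 4000 UMIs. Thinning to 1500 UMIs gave no value for the level, since an animal was left without a Pvalb UMI. None of these differences passed its test in any setting run.

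Calls between genotypes numbered 1 with DESeq2 (Ralyl), 5 with no filter on low counts (Ralyl, Cdh9, Dscam, Pcdh15 and Ptprk), 1 after removal of high doublet scores (Pcdh15) and 0 to 2 without an animal. Ptprk was named after its values were seen. With the replicate block there were 0 calls. In this balanced design the block cannot change the differences in shares and level (0.02871 and 0.01755 points and 0.1137 log2). Of these differences 0 were called with the block. Pcdh15 changed sign within the limits of the study (-0.2459) and with at least 2 Pvalb UMIs (-0.01138). Calls against the 31 Sst nuclei (159) numbered 1122 with no filter, 25 within the limits of the study, 46 with at least 2 Pvalb UMIs, 243 with Sst nuclei of at least 1 UMI and 152 to 184 without an animal. Those against the 250 Sst nuclei (243) numbered 755, 73, 132 and 237 to 255, and those against Vip nuclei (469) 1522, 207, 282 and 455 to 506. Fewer genes were tested in the stricter settings. Calls for sex and genotype (1) numbered 11 with no filter, 0 with at least 2 Pvalb UMIs, where Alcam was at -3.83 (adjusted p = 0.520), and 1 to 4 without an animal, and those for genotype against Vip nuclei (1) 0 to 2. Of the named genes called against Vip nuclei, Mef2c, Gria4 and Scn3a were not called in some settings, and Ppargc1b, Gabrb2 and Sema3a against the 250 Sst nuclei. Other settings for nuclei with at least 4 Pvalb UMIs were not run, since no nucleus held 4. The causes of these changes were not tested.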
